A study of Mus musculus with 14 samples.

Results

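The Polycomb group genes described here are 9 genes that encode subunits of the Polycomb repressive complexes PRC1 and PRC2: Ezh1, Ezh2, Eed, Suz12, Ring1, Rnf2, Bmi1, Cbx2 and Cbx7. They were chosen by name, and every probe that the platform annotation assigns to one of these symbols was used. This gave 12 of the 25697 probes, for 9 of the 16593 genes with a symbol of their own. Ezh2 has 3 probes, Ezh1 has 2 and each other gene has 1.

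RNA of mouse oocytes at the germinal vesicle (GV) stage, held in prophase of the first meiotic division, was hybridised to 14 one-colour Illumina BeadChip arrays. All oocytes carried, in the Rosa26 locus, a lox-stop-lox cassette followed by human AGO2 with myc and GFP tags, and came from mice given 5 units of the gonadotropin PMSG 48 h before injection. Cre-positive oocytes also carried Zp3-Cre, in which an oocyte-specific promoter drives the recombinase that takes out the stop, and Cre-negative oocytes did not, so Cre and the AGO2 it switches on cannot be told apart. The set without mimic held 4 Cre-negative and 4 Cre-positive samples, and the set with mimic held 3 and 3 samples of oocytes injected with 2 µM of a synthetic miR-15a. All oocytes were kept overnight in 2 µM milrinone, which holds them at the GV stage. The labels give neither the injection used without mimic nor whether the samples of a group came from different animals or from pools. The p-values thus cover the spread among these arrays, part of which may be technical.

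PRC2 places the H3K27 methyl mark on histone H3 through its catalytic subunit, EZH2 or EZH1, which needs EED and SUZ12. PRC1 places ubiquitin on histone H2A through RING1 or RNF2 (also known as RING1B), each paired with a PCGF protein such as BMI1, and canonical PRC1 reads the PRC2 mark through a CBX protein. In mouse oocytes both complexes contribute to the chromatin that is handed to the embryo, including maternal imprints that rest on the H3K27 mark.

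Argonaute proteins find their targets through the seed of the microRNA they hold, which pairs with the message. Bmi1 is listed in the literature as a target of the miR-15 and miR-16 family, and the sequences below show what these microRNAs share with miR-15a, the one supplied as mimic. They are RefSeq's mature sequences, 5′ to 3′, with the seed (bases 2 to 8) in capitals, and positions are on GRCm38.p6. Mir15a lies at chr14:61632075-61632096 on the minus strand, Mir15b at chr3:69009775-69009796 on the plus strand and Mir195a at chr11:70235062-70235082 on the plus strand. The same miR-16 is made from Mir16-1 at chr14:61631936-61631957 (minus strand) and Mir16-2 at chr3:69009918-69009939 (plus strand).
mmu-miR-15a-5p: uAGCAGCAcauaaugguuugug
mmu-miR-15b-5p: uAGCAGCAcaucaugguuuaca
mmu-miR-16-5p: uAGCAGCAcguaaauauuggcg
mmu-miR-195a-5p: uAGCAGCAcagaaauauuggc

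All 4 carry the same seed and differ in their 3′ parts. The seed was found in 10 mature mouse names of the RefSeq table, in a search that left out the entries of a single chromosome. The whole table, with that chromosome, holds 1679 mature names. Sites for it in the Polycomb transcripts were not analysed here.

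Log2 signal below is the raw intensity after background correction with an offset of 16 and quantile normalisation inside each set. The scale differs between the sets: the mean raw intensity per array lay between 118 and 151 without mimic and between 339 and 380 with mimic. A probe counted as detected on an array at a detection p under 0.05, which was reached by 11652 to 13619 probes per array without mimic and 13129 to 13715 with mimic. Of the arrays without mimic, Cre-positive replicate 1 had the 11652 detected probes, against 13294 or more on each other. Cre-positive replicate 4 stood at 24.1 on the first principal component, against -6.75 to 2.68 for the others. The difference without these 2 arrays is given beside that of each named gene's brightest probe without mimic, except for the cell type markers. The RNA carried 20 of 20 measured oocyte markers on every array of both sets, and 7 without and 8 with mimic of 21 granulosa and cumulus markers passed the detection filter, as did 2 of 10 theca, stroma and blood markers (Acta2 and Laptm5) in either set. No marker passed the Cre comparison (smallest limma adjusted p 0.948 without and 0.432 with mimic). Nlrp5 stood at 0.71 ± 0.300 without and 0.33 ± 0.139 with mimic. With mimic Npm2 stood at 0.71 ± 0.262, Gdf9 at 0.43 ± 0.175 and Esr2 at -0.37 ± 0.0965. The other Esr2 probe then averaged 9.52 in Cre-negative and 9.45 in Cre-positive oocytes. With mimic all Cre-positive arrays were higher for Npm2, Gdf9, Zp2, Oosp1, H1f8, Nobox and Padi6. The groups of the other oocyte markers overlapped, where 12.6% of all genes had groups that did not. Without mimic the groups of every oocyte marker overlapped.

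The Cre labels were checked on Ago2 (probe ILMN_2609056). Whether this probe reads mouse Ago2, the human AGO2 of the cassette or both was not tested. Its log2 signal without mimic was 4.91, 4.94, 5.06 and 4.63 in Cre-negative and 6.98, 6.81, 6.76 and 6.89 in Cre-positive oocytes. With mimic it was 5.91, 6.24 and 6.09 against 8.43, 8.53 and 8.33. Every Cre-positive array lay above every Cre-negative array of its set, by 1.97 ± 0.111 (SE) without and 2.35 ± 0.114 with mimic (limma adjusted p = 2.04e-08 and 0.000338).

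Transcripts of 7 Polycomb genes were detected on every array of both sets, and none of the 9 genes passed the test for a difference between Cre-positive and Cre-negative oocytes. Ezh1, Ezh2, Eed, Suz12, Rnf2, Bmi1 and Cbx2 entered every comparison. Ring1 entered only the comparison with mimic, and Cbx7 entered none. The detection filter, a detection p under 0.05 on at least 4 arrays without or 3 with mimic, was thus passed by 7 and 8 of the 9 genes, against 52.6% and 54.4% of all genes with a symbol. Raising the demand to a detection p under 0.01 left both numbers as they were. Since these are RNA levels in whole samples, fewer contributing cells and less RNA per cell cannot be told apart.

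**Figure D1:**
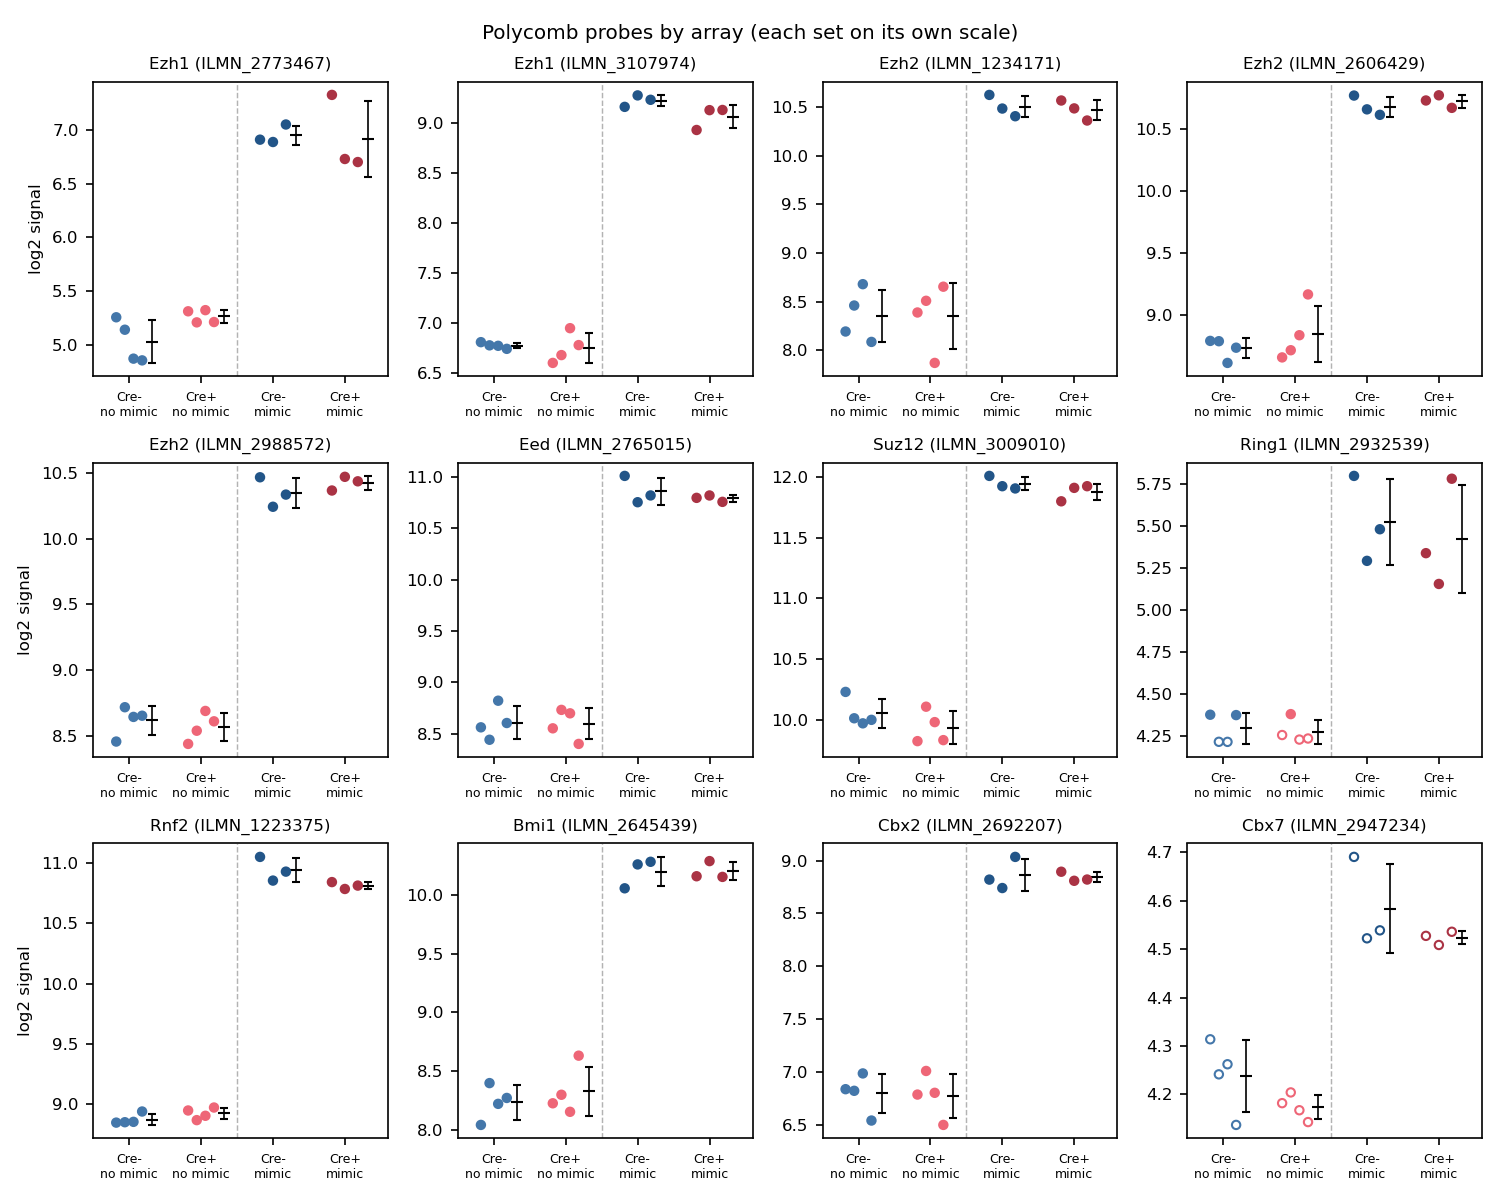
Log2 signal (vertical axis) of each Polycomb probe on each of the 14 arrays, by group, with bars for mean ± SD (4 arrays a group without mimic, 3 with mimic) and open circles for arrays without detection. The dashed line parts the sets, which have separate scales, and inside a set the Cre-positive and Cre-negative points overlap for most probes, while Cbx7 has only open circles.

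Ezh2 encodes the catalytic subunit of PRC2 that is used most in dividing cells. On its brightest probe (ILMN_2606429) the log2 signal without mimic was 8.79, 8.79, 8.61 and 8.73 in Cre-negative and 8.65, 8.71, 8.83 and 9.16 in Cre-positive oocytes. With mimic it was 10.77, 10.66 and 10.62 against 10.74, 10.78 and 10.68. The groups overlapped in both sets, and the single high array without mimic was Cre-positive replicate 4. The Cre-positive minus Cre-negative difference was 0.11 ± 0.118 (SE) without mimic and 0.04 ± 0.0882 with mimic (limma adjusted p = 0.956 and 0.940). Without Cre-positive replicates 1 and 4 the first of these was 0.04. The other 2 probes gave signals of 7.87 to 8.72 without mimic and 10.24 to 10.62 with mimic. ILMN_1234171 differed by 0.00057 without and -0.03 with mimic, and ILMN_2988572 by -0.05 and 0.08. The 3 probes therefore did not share a sign in either set, and each difference was below its SE.

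Ezh1 encodes the other catalytic subunit, which in mouse is the less active methyltransferase and is found in cells that no longer divide. Its brightest probe (ILMN_3107974) stood at 6.81, 6.78, 6.77 and 6.74 in Cre-negative and at 6.60, 6.68, 6.95 and 6.78 in Cre-positive oocytes without mimic. With mimic the values were 9.16, 9.27 and 9.23 against 8.93, 9.12 and 9.13, so all Cre-positive arrays lay below all Cre-negative ones. That difference was -0.16 ± 0.0954 (SE; limma adjusted p = 0.773), with a 95% confidence interval from -0.38 to 0.06. Without mimic it was -0.02 ± 0.103 (adjusted p = 0.992), or 0.04 ± 0.116 without Cre-positive replicates 1 and 4. The dimmer probe (ILMN_2773467) stood at 5.25, 5.14, 4.87 and 4.85 in Cre-negative and at 5.31, 5.21, 5.32 and 5.21 in Cre-positive oocytes without mimic, with overlapping groups. Its difference was 0.23 ± 0.113 (limma adjusted p = 0.956 over every probe), where the brighter probe gave none of that size. With mimic this probe gave -0.03 ± 0.172.

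Eed encodes the subunit that binds the H3K27 mark and stimulates the enzyme. Its log2 signal was 8.56, 8.44, 8.82 and 8.60 in Cre-negative and 8.55, 8.73, 8.70 and 8.40 in Cre-positive oocytes without mimic. With mimic it was 11.01, 10.75 and 10.82 against 10.80, 10.82 and 10.76. Both pairs of groups overlapped. The differences were -0.01 ± 0.114 and -0.07 ± 0.0974 (SE), with limma adjusted p = 0.996 and 0.907. Without the 2 arrays named above, the value without mimic was 0.11 ± 0.124.

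Suz12 encodes the scaffold on which PRC2 is assembled. Without mimic the Cre-negative arrays read 10.23, 10.01, 9.97 and 9.997 and the Cre-positive arrays 9.82, 10.11, 9.98 and 9.83. With mimic they read 12.01, 11.93 and 11.91 against 11.80, 11.91 and 11.93. The lowest arrays of each set were Cre-positive, and the groups overlapped in both. The difference was -0.12 ± 0.107 without mimic (limma adjusted p = 0.948) and -0.07 ± 0.0868 with mimic (adjusted p = 0.897). Without Cre-positive replicates 1 and 4 the difference without mimic was -0.0087.

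Rnf2 encodes the main E3 ubiquitin ligase of PRC1. Its arrays were closely spaced without mimic, at 8.84, 8.85, 8.85 and 8.94 in Cre-negative and 8.94, 8.86, 8.90 and 8.97 in Cre-positive oocytes. With mimic the signal was 11.05, 10.86 and 10.93 against 10.84, 10.79 and 10.81. Here every Cre-positive array lay below every Cre-negative array. The difference was -0.13 ± 0.0898 (SE) with mimic (limma adjusted p = 0.796) and 0.05 ± 0.0942 without (adjusted p = 0.970), or 0.01 in the latter without the 2 arrays that stand apart. Ring1, its paralogue and alternative ligase, was near the detection limit. Without mimic its probe was detected on 2 of 4 Cre-negative and 1 of 4 Cre-positive arrays, at log2 signals of 4.21 to 4.38, and no difference was tested. With mimic it was detected on all 6 arrays, at 5.80, 5.29 and 5.48 against 5.34, 5.15 and 5.78. The groups overlapped, with a difference of -0.10 ± 0.191 (limma adjusted p = 0.936). Under a detection p of 0.01 the Ring1 probe was above background on 3 of those 6 arrays.

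Bmi1 encodes PCGF4, the partner that holds the ligase in canonical PRC1. Its log2 signal without mimic was 8.04, 8.40, 8.22 and 8.27 in Cre-negative and 8.23, 8.30, 8.15 and 8.63 in Cre-positive oocytes, and the groups overlapped. The group means were 8.23 ± 0.148 and 8.33 ± 0.211 (SD, n = 4 each). With mimic it was 10.06, 10.26 and 10.28 against 10.16, 10.29 and 10.15, and the Cre-positive arrays spread over much the same range as the Cre-negative ones. The means were 10.20 ± 0.124 and 10.20 ± 0.0762 (SD, n = 3 each). The Cre difference was 0.09 ± 0.121 (SE) without mimic and 0.00079 ± 0.0997 with mimic (limma adjusted p = 0.957 and 0.999). As fold changes, the 95% intervals ran from 0.894 to 1.27 and from 0.852 to 1.18. Without Cre-positive replicate 4, whose 8.63 was the highest value, the difference without mimic was -0.0065, and leaving out replicate 1 as well gave the same value.

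Cbx2 and Cbx7 encode chromodomain proteins of canonical PRC1. The Cbx2 signal was 6.83, 6.82, 6.98 and 6.54 in Cre-negative and 6.78, 7.01, 6.80 and 6.50 in Cre-positive oocytes without mimic. With mimic it was 8.82, 8.74 and 9.03 against 8.89, 8.81 and 8.82. The lowest array of each group without mimic was its replicate 4, and the groups overlapped in both sets. Both differences were -0.02, with SE 0.125 and 0.103 (limma adjusted p = 0.994 and 0.973). Without the 2 arrays that stand apart, Cbx2 stood at 0.11 ± 0.135 in the set without mimic. The Cbx7 probe was detected on 0 of the 14 arrays. Its log2 signal was 4.14 to 4.31 without mimic and 4.51 to 4.69 with mimic, where the dimmest detected probe of an array read 4.35 to 4.53 and 4.97 to 5.07. Its level in these oocytes was therefore not measurable, which does not show that the transcript is absent.

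Inside each set, the order of the Cre-positive and Cre-negative means could not be settled for any of the 9 genes, since no difference passed the test. In the set without mimic 0 of 7 members passed at a limma adjusted p under 0.05, where 4 of 9546 genes did (0.0419%), and 0 passed at an unadjusted p under 0.05 (all genes 4.67%). With mimic 0 of 8 members passed, where 13 of 9883 genes did (0.132%), and again 0 at the unadjusted threshold (all genes 7.5%). Groups did not overlap for 0 of 7 members without mimic, against 2.91% of all genes. With mimic this held for 2 of 8, Ezh1 and Rnf2, against 12.6% of all genes. A share of this size over 8 genes is a description and no result about them.

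**Figure D2:**
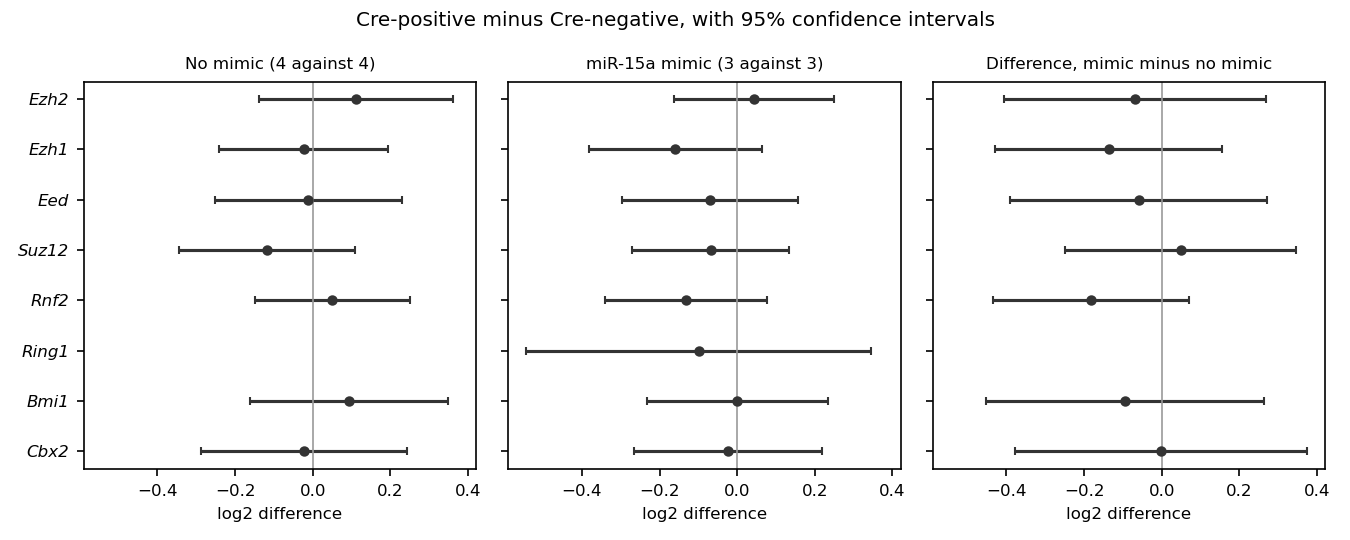
Cre-positive minus Cre-negative difference in log2 signal (horizontal axis) for each tested Polycomb gene, with 95% confidence intervals from limma, without mimic, with mimic, and as the difference of these differences. All intervals include 0, and Ring1, which was tested only with mimic, has the widest one.

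The intervals give the range of differences these arrays leave possible for each gene's brightest probe, taken singly. Over the 7 genes tested in both sets, the 95% intervals of that probe lay between 0.788-fold and 1.29-fold without mimic and between 0.767-fold and 1.19-fold with mimic. Ring1 with mimic had the interval from 0.686-fold to 1.27-fold. The dimmer Ezh1 probe reached beyond these bounds, with intervals from 0.997-fold to 1.39-fold without mimic and from 0.743-fold to 1.29-fold with mimic. With mimic the Ezh2 probe ILMN_2988572 also passed the upper bound of 1.19-fold, with an interval from 0.902-fold to 1.23-fold. The background that remains under a probe and the offset keep a measured fold closer to 1 than that of the transcript, most for the dimmest probes.

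As a list, the members had a median Cre difference of -0.01 (-0.011) without mimic, against -0.01 (-0.0061) over all genes. Above 0 were 3 of 7 members and 4566 of all 9546 genes. The median absolute difference was 0.05, against 0.08 over all genes, and without the 2 arrays that stand apart the members' median was 0.04. With mimic the median was -0.07, against 0.0019 over all genes, and the median absolute difference was 0.07 against 0.10. Above 0 were then 2 of 8 members and 4991 of all 9883 genes. The largest absolute differences, 0.12 for Suz12 without and 0.16 for Ezh1 with mimic, were exceeded by 35.1% and 29.7% of all genes.

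**Figure D3:**
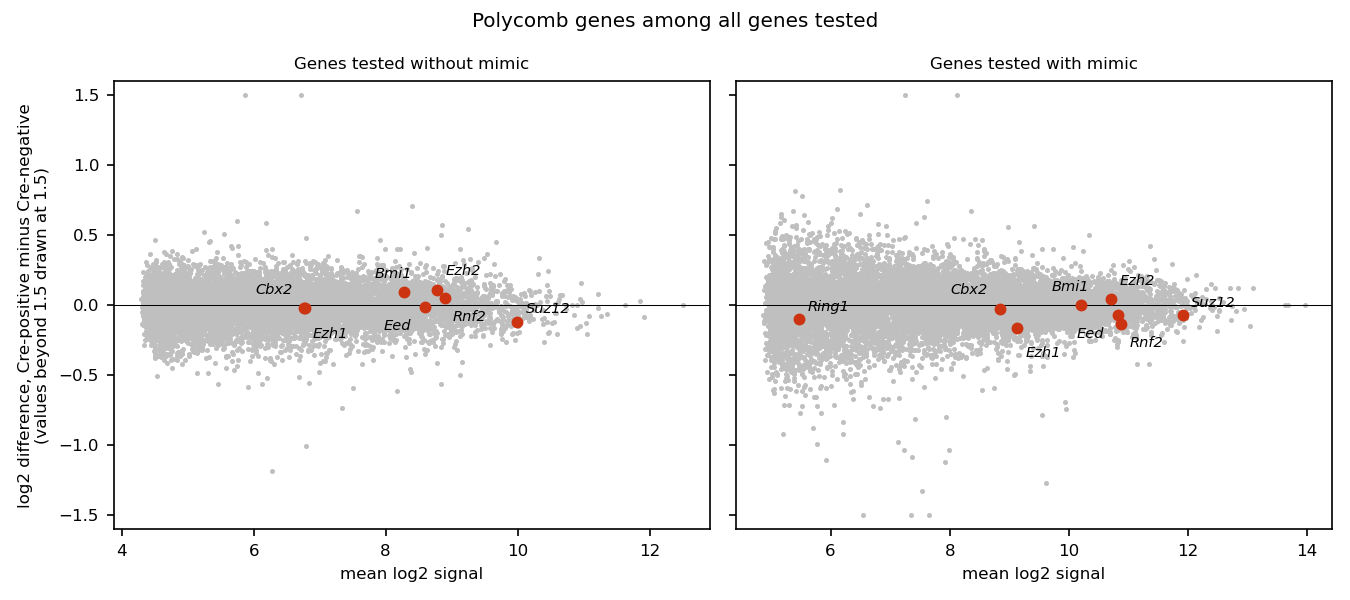
Cre-positive minus Cre-negative difference in log2 signal (vertical axis) against mean log2 signal (horizontal axis) for all 9546 genes tested without and 9883 genes with mimic (grey), with the Polycomb genes in red. Genes beyond 1.5 are drawn at 1.5, and the Polycomb genes lie within the cloud, at absolute differences of at most 0.12 and 0.16.

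Whether the Cre difference itself changed with the mimic was asked by a contrast over all 4 groups, in which each difference is taken inside its own set. For Bmi1 the value with mimic minus the value without was -0.09 ± 0.170 (SE), with a 95% interval from -0.45 to 0.26. Rnf2 gave the largest absolute value, -0.18 ± 0.120, followed by Ezh1 at -0.14 ± 0.138. Suz12 stood at 0.05 ± 0.141, Ezh2 at -0.07 ± 0.160, Eed at -0.06 ± 0.157 and Cbx2 at -0.0017 ± 0.179. Of the members 0 of 7 passed, at a limma adjusted p of 0.9999 for each, where 0 of 9109 genes did (0%), and 0 passed at an unadjusted p under 0.05 (all genes 4.54%). The median was -0.07, against 0.01 over all genes. These values rest on the same arrays as the 2 differences they compare.

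Mimic and set were the same split of the arrays, so the effect of the mimic cannot be told apart from that of the set, and it was not tested. On a joint quantile scale, where the median over all genes measured in both sets was -0.0020 in Cre-negative and 0.0063 in Cre-positive oocytes, Bmi1 stood at 0.03 and -0.06 (set with mimic minus set without). These values lie at percentiles 53.3 and 42.5 of those genes. Ezh2 likewise stood near the median, at 0.05 and -0.02. Ezh1 stood at 0.50 and 0.37, at percentiles 90.3 and 84.5, and Eed at 0.35 and 0.29. Suz12 gave 0.18 and 0.21, Rnf2 0.19 and -0.00019, and Cbx2 0.14 in both. With joint median scaling all genes moved, by a median of 0.92 and 0.99, and the members stood between 1.16 (Suz12) and 1.67 (Ezh1) in Cre-negative oocytes and between 1.18 (Bmi1) and 1.62 (Ezh1) in Cre-positive ones. Bmi1 at 1.19 and 1.18 was then at percentiles 70.9 and 64.6. The place of a gene against the others thus depended on the scaling. It did so most for the dim probes of Ring1, at percentiles 87.9 and 87.9 on the joint quantile scale but 26.1 and 18.6 on the joint median scale, and of Cbx7, at 43.3 and 50.2 against 1.08 and 1.04. The probes of a gene also disagreed: on the joint quantile scale in Cre-negative oocytes the other Ezh2 probes gave 0.22 and -0.20. The dimmer Ezh1 probe gave 0.43 in Cre-negative and 0.11 in Cre-positive oocytes on that scale. On the joint median scale it stood at percentiles 70.8 and 47.2.

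**Figure D4:**
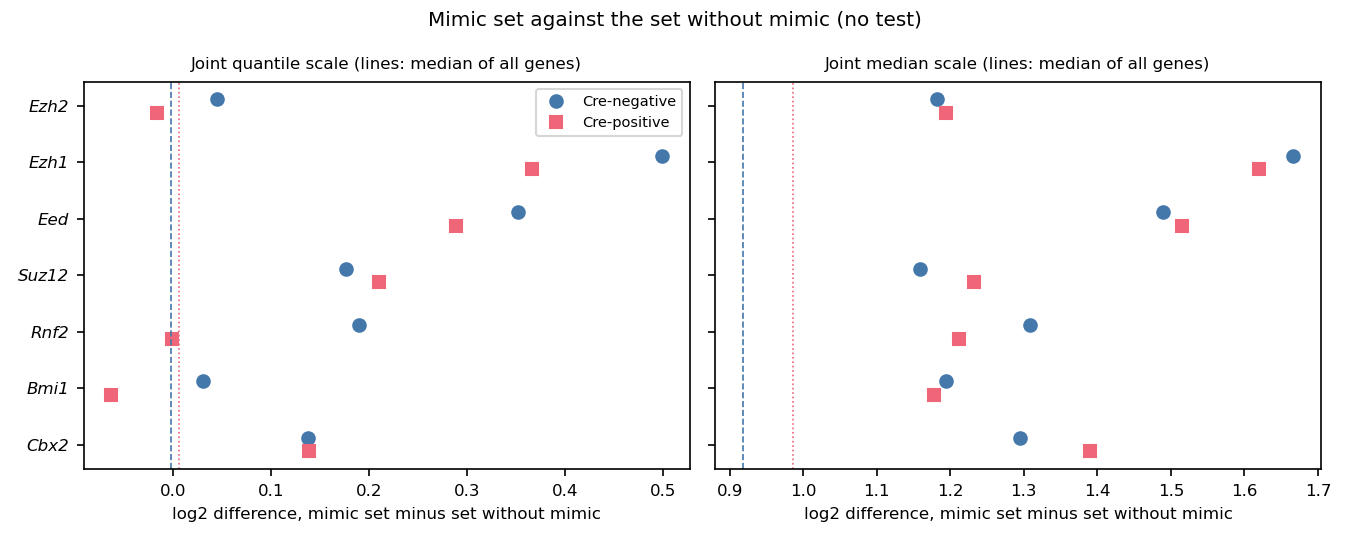
Set with mimic minus set without mimic in log2 signal (horizontal axis), for Cre-negative (circles) and Cre-positive oocytes (squares), on a joint quantile scale and a joint median scale, with no test. Vertical lines give the median of all genes. Each gene is drawn by its brightest probe, and on these probes Ezh1 and Eed lie farthest to the right of the median on both scales.

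The remaining Polycomb genes were examined as lists. Of 9 other PRC2 subunits on the array, 9 were tested without and 8 with mimic, of 28 other PRC1 subunits 22 in each set, and of 11 genes of the PhoRC complex and the H2A deubiquitinase complex 10 in each. None of them passed in either direction in either set. Their median Cre differences were 0.05 and -0.07 (PRC2), -0.03 and -0.06 (PRC1) and 0.04 and 0.03 (PhoRC and deubiquitinase), without and with mimic. With mimic 4 of the 22 PRC1 subunits and 3 of the 8 PRC2 subunits stood above 0, and without mimic 8 of 22 and 5 of 9. Over all genes 4991 of 9883 stood above 0 with mimic and 4566 of 9546 without.

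Pcgf6, a BMI1 paralogue of non-canonical PRC1, was lower on all 4 Cre-positive arrays without mimic, at -0.24 ± 0.0963 (limma adjusted p = 0.948), and at -0.25 without the 2 arrays that stand apart. It stood at -0.09 ± 0.0970 with mimic (adjusted p = 0.879). Bcor, a corepressor of another non-canonical PRC1, gave 0.21 ± 0.135 without mimic, and its 3 probes ranged from 0.04 to 0.21. It gave 0.07 once the 2 arrays that stand apart were left out. With mimic Bcor stood at 0.51 ± 0.238 (limma adjusted p = 0.712), with overlapping groups and probes from 0.02 to 0.51. With mimic the lowest p among PRC1 genes was that of Mga, a DNA-binding partner of PCGF6, at 0.46 ± 0.148 (adjusted p = 0.520), with all Cre-positive arrays higher. Auts2, a PRC1 partner known from neurons, stood at -0.21 ± 0.118 with mimic (adjusted p = 0.758).

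Among PRC2 accessory genes, Phf19 and Epop without mimic stood at 0.19 ± 0.116 and -0.10 ± 0.127 (limma adjusted p = 0.948 and 0.957). Without the 2 arrays that stand apart they stood at 0.23 and 0.01. Both were near the detection limit, at mean log2 signals of 4.45 and 4.55, where the dimmest detected probe of an array read 4.35 to 4.53. With mimic Mtf2, which like PHF19 brings PRC2 to DNA, stood at -0.30 ± 0.206 (adjusted p = 0.800). Ezhip, which encodes an inhibitor of PRC2 found in germ cells, was detected on every array and stood at 0.05 ± 0.0851 with mimic (adjusted p = 0.916). Asxl2, the partner that activates the H2A deubiquitinase BAP1, gave 0.28 ± 0.122 without mimic (adjusted p = 0.948). Without the 2 arrays that stand apart it gave 0.09. L3mbtl3, a reader of methylated histones, gave -0.30 ± 0.131 (adjusted p = 0.948), or -0.12 without those arrays, and its dimmer probe gave -0.10. With mimic L3mbtl3 stood at -0.16 ± 0.0874, or -0.42 ± 0.152 on the dimmer probe (adjusted p = 0.598 over every probe). Hcfc1, a cofactor bound to BAP1, stood at 0.48 ± 0.125 with mimic (limma adjusted p = 0.430), with all Cre-positive arrays higher. The difference from its value without mimic, 0.44 ± 0.162, did not pass (limma adjusted p = 0.9999). On the brightest probes of the Polycomb lists with mimic, all Cre-positive arrays were also higher for Asxl2 and lower for Phc1, Foxk1 and L3mbtl3. Over all genes, groups did not overlap for 12.6% with mimic and 2.91% without.

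The enzymes that remove the H3K27 mark were tested next. Kdm6a stood at 0.09 ± 0.108 without and -0.10 ± 0.0947 with mimic, and Kdm6b at -0.08 ± 0.105 and 0.05 ± 0.145 (limma adjusted p from 0.852 to 0.960). Without the 2 arrays that stand apart the values without mimic were 0.04 and -0.13. The dimmer Kdm6b probe gave 0.31 ± 0.129 without mimic (adjusted p = 0.956 over every probe), against the sign of the brighter one. Uty, the Y-linked copy of Kdm6a, stood near the detection limit, detected on 6 of 8 arrays without and 3 of 6 with mimic, although oocytes of XX mice carry no Y chromosome. Its differences were 0.07 ± 0.119 and -0.28 ± 0.149 (limma adjusted p = 0.966 and 0.7501), the first being -0.01 without those arrays.

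Genes that Polycomb is known to hold silent were mostly undetected. Of 38 Hox genes on the array, the developmental genes by which Polycomb was first known in the fly, 6 passed the detection filter without mimic (15.8%) and 10 with mimic (26.3%), where 52.6% and 54.4% of all genes did. On every array 2 were detected without mimic, Hoxa7 and Hoxc10, and 3 with mimic, these and Hoxd9. None passed the Cre comparison. Hoxc10 stood at 0.34 ± 0.119 without mimic (limma adjusted p = 0.948) and 0.11 ± 0.0960 with mimic, and Hoxd9 at -0.04 ± 0.130 without. Leaving out the 2 arrays that stand apart gave 0.23 and 0.07 without mimic. With mimic Hoxd11 stood at 0.27 ± 0.138 and Hoxd1 at -0.13 ± 0.107, the smallest p in each direction. Both were near the detection limit, at mean log2 signals of 5.12 and 5.08, where the dimmest detected probe of an array read 4.97 to 5.07. Of 6 genes whose maternal copy is silenced by the H3K27 mark in early mouse embryos, 1 passed the filter in either set, Slc38a4. Its Cre difference was 0.12 ± 0.113 without mimic (limma adjusted p = 0.948), or 0.05 without those arrays, and 0.55 ± 0.281 with mimic (adjusted p = 0.737), where it was detected on 2 of 3 Cre-negative and 3 of 3 Cre-positive arrays.

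The members did not follow a common course over the arrays. After each set was centred on its mean, the 21 correlations between pairs of the 7 members over the 14 arrays ran from -0.633 to 0.540, with 12 above 0. The arrays of a set share its normalisation and, inside a group, their condition, so these values are a description. Of 8327 genes measured in both sets, the one whose course was most like that of Suz12 was Nedd1 (Pearson r 0.896, Spearman rho 0.751). Without the 2 arrays farthest from the median of Suz12 the r was 0.857. For Eed it was Tbp (0.846, rho 0.657, and 0.840 without its 2 farthest arrays). Ezh2 was most like Ahctf1 (0.913, rho 0.697), but without its 2 farthest arrays the r was 0.490. The values for Bmi1 and Nol12 were 0.896, rho 0.749 and then 0.645. Rnf2 paired with Csprs (0.889, rho 0.714, then 0.709), Cbx2 with Rapgef1 (0.858, rho 0.845, then 0.755) and Ezh1 with Capza1 (0.825, rho 0.758, then 0.725). Each is the highest of 8327 values, and no p is given.

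The genes with a promoter at hand all held more CpG at the start site than the median promoter, a feature that their choice did not use. RefSeq (GRCm38.p6) promoters of 300 bases, 250 before to 50 after the start, were at hand for 8 of the 9 genes, the exception being Cbx2. They held a median of 30.5 CG dinucleotides, counted on 1 strand since CG reads the same on both. The count ran from 17 in Eed (percentile 68.1 of the promoters in the table) to 41 in Suz12 (percentile 96.65). The median over the 27025 promoters of the table was 7. Their median GC content was 66.8%, against 52.7% over the table. Bmi1 and Ezh1 held 23 each (percentile 78.4), and the promoter of Cbx7, whose transcript was not detected, held 33. No comparison was made with the promoters of detected genes alone.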

How the data were processed

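Per the file headers, the authors deposited for each set a table of raw signal intensity with detection p-values and a table of normalized values. The deposited normalized values are log2 signal: they equal quantile-normalized log2 raw intensity without background correction to within 4.97e-14. Which scanner and software were used is not stated.

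Raw intensity was background corrected (nec of limma 3.58.1 in R 4.3.3, offset 16, with the detection p-values standing in for negative controls), log2 transformed and quantile normalized inside each set. Symbols came from the platform annotation: 23978 probes had 1 symbol and 1719 several or none, and 23962 matched RefSeq by gene ID. The brightest probe stood for its gene among those that passed the detection filter, and a probe without 1 symbol stood for itself. Groups were compared with limma (lmFit, eBayes, two-sided) and Benjamini-Hochberg adjustment over all genes, at an adjusted p under 0.05. The procedure was tested on simulated data.

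The members and lists were chosen with earlier results of these data known. Besides the members and Ago2, named genes were, in each list other than the cell type markers, those that passed, otherwise the smallest p in each direction and set, and every H3K27 demethylase measured. Other genes and probes were named after their values were seen.

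Same-numbered arrays of the groups correlated at -0.07 to 0.0084 without and 0.04 to 0.21 with mimic, so the replicate numbers were not taken as pairs. Alternatives changed the background correction, offset, scaling, filter, probe choice, variance model, array weights, replicate block and arrays used.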

Additional observations from a re-analysis of the deposited data

Results flagged for a closer look

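Of 24 groups of 4 arrays checked for an array far from the others, 2 held one, and chance alone flags about 1 in 20. For Suz12, Cre-negative replicate 1 read 10.228 where the other 3 arrays read 9.97 to 10.01. Without it the Cre difference of Suz12 without mimic was -0.06, against -0.12 with it. For Rnf2, Cre-negative replicate 4 read 8.936 where the others read 8.84 to 8.85. Without it the Cre difference of Rnf2 was 0.07, against 0.05. Groups of 3 were not checked.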

How the results depend on the processing

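None of the 450 alternative values of the members passed the threshold: 410 kept their direction and 40 changed it, and the smallest adjusted p was 0.666 (Ezh1 with mimic). Members called stayed at 0 throughout, as did the other Polycomb lists. Of 432 values of the other named genes without Ago2, 10 changed direction. The replicate block called 4, 3 and 0 genes in all (without mimic, with mimic, difference), against 4, 13 and 0 without it, and changed no call of a member. With mimic the count of all genes was 21 without background correction, with median scaling and on the deposited values, 26 with trend and robust, and 25 with 1 shared spread. Without mimic it was 2 at an offset of 1 and 2 with no filter. In the difference it was 3 without background correction, 2 with median scaling, 3 on the deposited values, 1 with no filter, 2 with trend and robust and 3 with array weights.

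The members' median with mimic was -0.0467 without background correction and -0.0467 on the deposited values, against -0.0693. Median scaling gave medians of -0.0899 without mimic and 0.0116 in the difference, and turned Rnf2 without mimic to -0.0226 and, in the difference, Ezh2 to 0.0116, Eed to 0.0261 and Cbx2 to 0.0950. At an offset of 1 the difference was 0.00169 for Cbx2 and -0.166 for Ago2. Array weights turned Eed to 0.0251, Cbx2 to 0.0245 and Hoxd9 to 0.0319 without mimic, and Ezh2 to 0.0149 in the difference. Leaving out Cre-positive replicates 1 and 4, chosen after seeing the data, gave medians of 0.0383 and -0.133 (without mimic, difference). Without mimic it turned Ezh1 to 0.0383, Eed to 0.107, Bmi1 to -0.00654, Cbx2 to 0.109, Epop to 0.0131, Uty to -0.0128 and Hoxd9 to 0.0749, and in the difference Ezh2 to 0.000687, Suz12 to -0.0597 and Bmi1 to 0.00733. The members' median between the sets less that of all genes, in Cre-negative oocytes, was 0.179 on the joint quantile and 0.377 on the joint median scale.

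Leaving out each array in turn gave, without mimic, members' medians of -0.0318 to 0.0432, Ezh1 -0.0886 to 0.0276, Eed -0.0669 to 0.0606, Bmi1 -0.00654 to 0.153, Cbx2 -0.108 to 0.0693, Uty -0.0131 to 0.154 and Hoxd9 -0.0961 to 0.0817. With mimic it gave medians of -0.105 to -0.0411, Eed -0.125 to 0.00413, Ring1 -0.283 to 0.0386, Bmi1 -0.0698 to 0.0419, Cbx2 -0.0854 to 0.0618 and Kdm6b -0.0821 to 0.168. The genes called in all with mimic were then 2 to 13: 2 without Cre-negative replicate 1, Cre-negative replicate 2 or Cre-positive replicate 2, 7 without Cre-negative replicate 3 and 6 without Cre-positive replicate 1. In the difference it gave 0 to 4 genes (4 without Cre-positive replicate 3 of the mimic set and 1 without Cre-negative replicate 4 of the other), medians of -0.127 to -0.0243, Ezh2 -0.131 to 0.0396, Eed -0.131 to 0.0155, Suz12 -0.00889 to 0.110, Bmi1 -0.164 to 0.00733 and Cbx2 -0.0930 to 0.0839. The cause of these moves was not tested. The chip as a block was not run, since the chips of the arrays are not named in the tables used here. The number of arrays limits precision, and signal over background limits Ring1 and Cbx7.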
